A study of Mus musculus with 24 samples.

Results

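The retinoic acid pathway was represented by 10 genes, taken by name from a table of raw read counts for 35591 genes in 24 libraries. They were Stra6, Rdh10, Dhrs3, Aldh1a2, Cyp26a1, Crabp1, Crabp2, Rara, Rarb and Rarg, and each name occurred in a single row. The libraries were poly(A) RNA sequencing of mouse embryonic stem cells (mESCs) from 6 male lines, differentiated towards neuromesodermal progenitors (NMPs), which give rise to spinal cord and trunk mesoderm. There were 3 lines of genotype Smchd1[fl/+] (wt) and 3 of genotype Smchd1[del/+] (het), each sampled at day 0, day 2, day 2.5 and day 3, which gave 8 groups of 3 libraries. All lines had a Castaneus mother with intact Smchd1 and a C57BL/6 father with a deleted and a floxed Smchd1 allele, whose Cre transgene was driven by the MMTV promoter. The embryo's paternal Smchd1 allele was therefore floxed in wt lines and deleted in het lines. The oocytes were Smchd1 wild-type in both. Whether each line inherited the Cre was not given in the sources used here. Day 0 cells were in serum with leukaemia inhibitory factor. The medium was then changed to N2B27 with basic FGF, and the Wnt pathway activator CHIR99021 was added on day 2, before the day 2.5 and day 3 samples. The 2i medium in which lines were kept before the course held the same activator. No addition of retinoic acid was stated. Whether the medium's supplement held vitamin A was not given in the sources used here.

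Retinoic acid is a vitamin A derivative that sets gene expression by binding nuclear receptors. Retinol enters cells through carriers, is oxidised to retinaldehyde and then to retinoic acid, and is degraded by cytochromes of the CYP26 family. In the elongating embryo, retinoic acid made by somites meets a tail end kept low in it by breakdown, and the balance with FGF and Wnt signals helps decide when axial progenitors differentiate. Among the genes described here, Stra6 encodes a cell-surface carrier of retinol and Rdh10 an enzyme that oxidises retinol to retinaldehyde. Dhrs3 encodes an enzyme that reduces retinaldehyde back to retinol, and Aldh1a2 encodes the main embryonic enzyme that makes retinoic acid. Cyp26a1 encodes a retinoic acid hydroxylase that starts its breakdown. Crabp1 and Crabp2 encode intracellular binding proteins for retinoic acid. Rara, Rarb and Rarg encode its 3 nuclear receptors.

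Retinoic acid receptors bind as heterodimers to direct repeats of a short motif. Promoter sequences from RefSeq (GRCm38.p6, 250 bases before to 50 after each start) were available for 8 of the 10 genes, in 17 promoters, and not for Rdh10 and Crabp2. They were searched on both strands for 2 copies of the motif spaced by 1, 2 or 5 bases (called DR1, DR2 and DR5), the motif being AGGTCA or AGTTCA or GGGTCA or GGTTCA. Such a repeat was found in 2 of the 17 promoters, those of Cyp26a1 and Rarb, both of the DR5 kind. Of all 32851 promoters in the table, 0.0974% held a DR5, 0.268% a DR2, 0.222% a DR1 and 0.588% any of them. The 2 stretches are shown because these genes are well-known direct targets of the receptors and because both had called rises between day 0 and day 2, that of Rarb in het being lost in several settings. Capitals mark the 2 copies, and both are written on the strand of the gene.
Cyp26a1, chr19:37697736-37697797: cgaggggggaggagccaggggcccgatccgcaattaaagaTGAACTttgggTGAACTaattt
Rarb, chr14:16575513-16575529: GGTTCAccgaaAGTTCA
The Cyp26a1 repeat lay on the opposite strand, 32 to 16 bases before the start of the gene given by RefSeq. The Rarb repeat was on the gene's own strand, 53 to 37 bases before the RefSeq start, and in the GENCODE vM21 annotation the same bases belong to an annotated first exon of Rarb. A match is a description of the letters and not evidence of binding in these cells. The absence of a match from the other promoters applies to these windows only.

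Between day 0 and day 2 the breakdown enzyme Cyp26a1, the retinaldehyde reductase Dhrs3 and the carrier Stra6 rose in both genotypes, while Rara fell. The receptor Rarb rose in wt, and its rise in het was lost under several other settings. From day 2 to day 2.5, Rarg fell in both genotypes and Aldh1a2 rose, in wt with an adjusted p close to the threshold. Crabp2 rose by 2.05 in wt and by 2.39 in het on the log2 scale between day 2.5 and day 3. Between het and wt, 1 of the 10 genes passed the edgeR test on any day, Cyp26a1, lower in het at day 2. Of all genes, 0.551% passed at day 2, 0% at day 0 and day 2.5, and 0.00638% at day 3. The Cyp26a1 call was lost in 4 of 6 fits without a library, and 12 of 14 extraembryonic endoderm markers were also lower in het at day 2. In those 4 fits at most 8 of all genes passed, so the marker calls could not all stand there either.

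**Figure D1:**
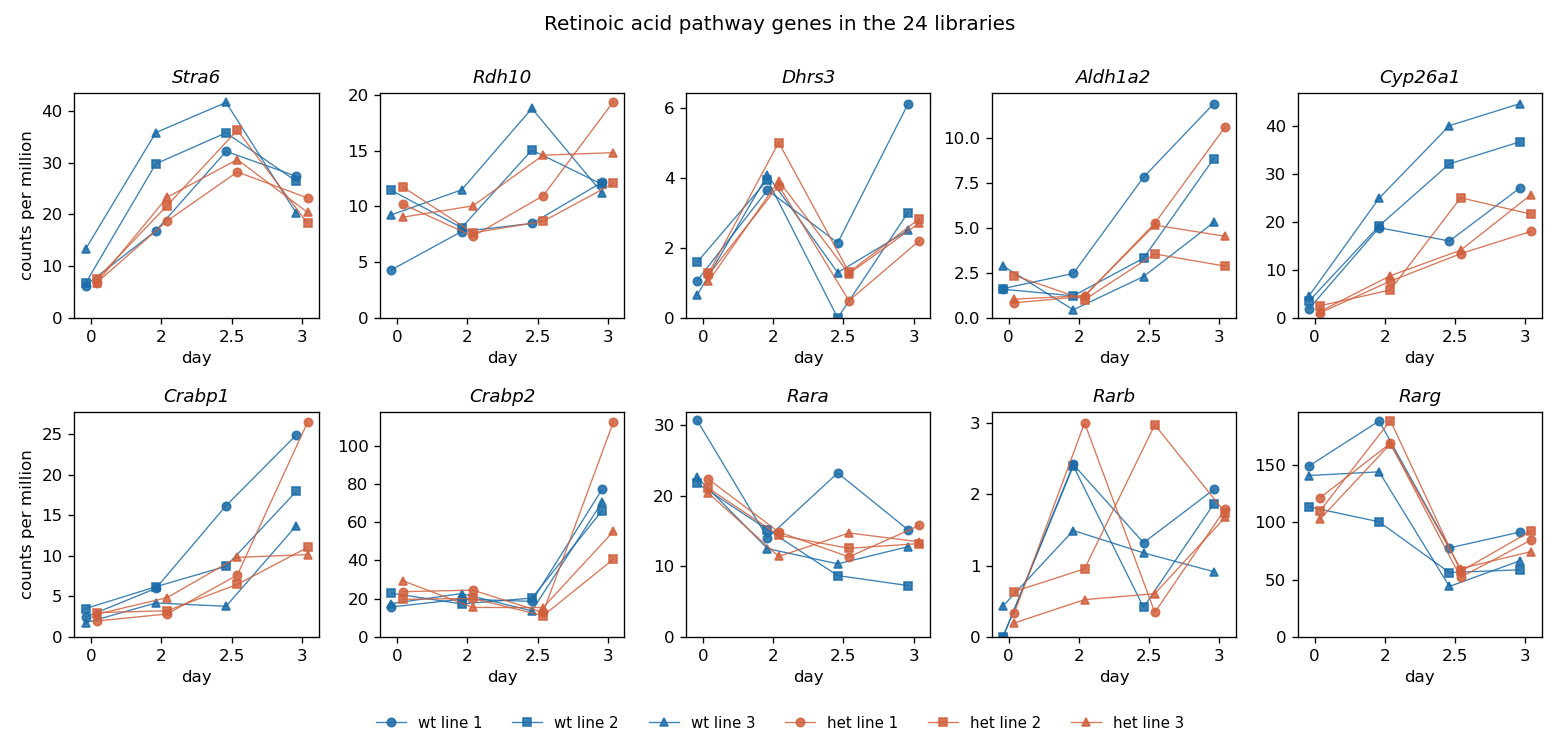
Level of each of the 10 genes in CPM, counts scaled to the library total (linear axes that start at 0 and differ between panels) against day, with 1 point per library and lines joining the libraries of a cell line. For Cyp26a1 each het line was under each wt line at day 2 and day 3, and Crabp2 rose in all 6 lines from day 2.5 to day 3.

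Library totals ranged from 7.10 M to 20.8 M counts with a median of 17.9 M. The smallest was wt day 2.5 line 2, and the next smallest had 14.4 M. Levels are given as CPM (a gene's counts per 1 M counts of its library, scaled by TMM factors), and 3 counts correspond to 0.138 to 0.414 CPM, which is taken as the limit that a count of 0 allows. Such limits cover counting error only. The deleted gene, Smchd1, was measured at 54.7% to 66.8% of the wt mean in het on the 4 days, with the 3 het libraries below the 3 wt libraries on each day. In both genotypes all 6 naive pluripotency markers fell between day 0 and day 2 by the edgeR test, and 6 of 7 NMP markers rose between day 2 and day 2.5 while Sox2 fell. Of 16 extraembryonic endoderm markers, 14 were above 1 CPM in at least 1 library of every group from day 0 on, and these are given beside the results for Stra6 and Cyp26a1. In bulk RNA, fewer cells of a type and less RNA per cell cannot be told apart.

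Levels between genes were compared per length, as CPM per kilobase of summed exons. Rarg was highest of the 10 at day 0, with a mean of 31.6 ± 4.38 in wt and 26.2 ± 2.21 in het (SD, n = 3), and no library of Crabp2, the next gene, reached it. Rarb was lowest in each of the 8 groups, with means of 0.0274 to 0.399 CPM per kilobase. At day 3 Crabp2 headed the order with 54.0 ± 4.25 in wt and 52.6 ± 28.7 in het (SD, n = 3). In wt it lay above Crabp1 in all libraries (23.5 ± 7.04), while in het the ranges of Crabp2 and Crabp1 (19.8 ± 11.4) overlapped (SD, n = 3). Cyp26a1 moved up the order from rank 6 at day 0 to rank 3 at day 2 in wt, and from rank 7 to rank 4 in het. Rara moved the other way, from rank 3 at day 0 to rank 6 at day 2 in both genotypes. Neighbours in the middle of the order often overlapped. At day 3 in wt, Stra6, Aldh1a2, Rdh10 and Rara each overlapped the next gene, with means between 2.69 and 4.23 CPM per kilobase.

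**Figure D2:**
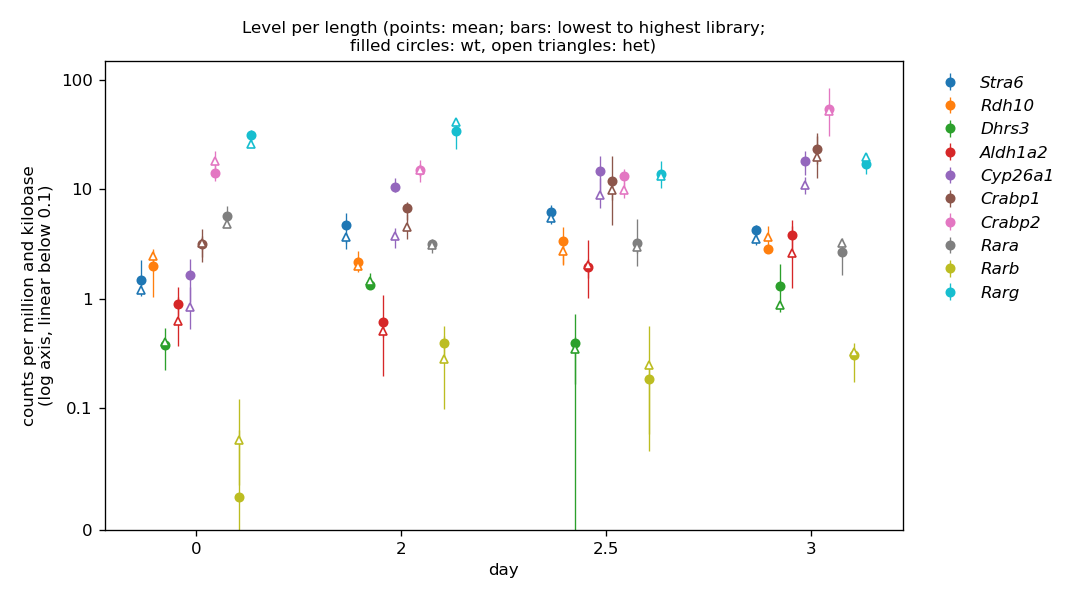
Level of each gene per kilobase of exon (CPM per kilobase, log axis that is linear below 0.1) by day, as means with bars from the lowest to the highest of 3 libraries, filled circles for wt and open triangles for het. Rarg was highest at day 0 and day 2, Crabp2 at day 3, and Rarb was lowest throughout.

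Each step of the time course was tested within a genotype, 3 libraries against 3, by the edgeR quasi-likelihood test with Benjamini-Hochberg adjustment over all genes tested, and a gene is said to rise, fall or differ where the adjusted p was under 0.05. The 3 lines of a genotype were separate, while the days of a line were repeated measures. From day 0 to day 2, 6 of the 10 genes passed in wt (5 higher, 1 lower), where 44.3% of all genes passed, and 6 of the 10 in het (5 higher, 1 lower), where 56.1% of all genes passed. From day 2 to day 2.5, 2 of the 10 passed in wt (1 higher, 1 lower) against 29.1% of all genes, and 7 of the 10 in het (4 higher, 3 lower) against 44.7%. From day 2.5 to day 3 the numbers were 2 of 10 in wt (1 higher, 1 lower) against 19.1%, and 5 of 10 in het (4 higher, 1 lower) against 29.8%. With the line as a replicate block, which pairs the days of a line, 5 of 10 passed in wt for this last step. All calls in wt then went from 2923 to 4687 of 15292 genes. In het the same 5 of 10 passed with the block, where 4876 of 15801 genes did. The median log2 change of the 10 genes was 0.61 in wt and 0.58 in het for the first step, against 0.02 and 0.01 for all genes. Regardless of sign, the median change of all genes in this step was 0.54 in wt and 0.53 in het. The wt median of the 10 genes fell in a gap between Rdh10 (0.14) and Crabp1 (1.09). For the second step the signed median of the 10 genes was 0.22 and 0.17 against 0.00 and 0.01, and for the third 0.49 and 0.40 against 0.00 and -0.02. Whether the steps differed between genotypes was tested as the interaction itself. None of the 10 genes passed for any step in the main edgeR fit or in the DESeq2 Wald test. The main fit passed 0% of all genes in each of the 3 steps. DESeq2 passed 10 of 16387 genes in the first step and 0 in the others. In the edgeR fit with no filter, 1 of the 10 genes passed in the first step, where 58 of 23678 genes did. At an unadjusted p under 0.05 in the main edgeR fit there was 1 of the 10 genes for the first step, Rarg, and 0 for the others. Of all genes, 1034 of 16387 were under it in the first step, 850 of 16569 in the second and 635 of 16486 in the third. The larger numbers in het are therefore not shown to be a difference between the genotypes, and for the last step the numbers were equal with the block.

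**Figure D3:**
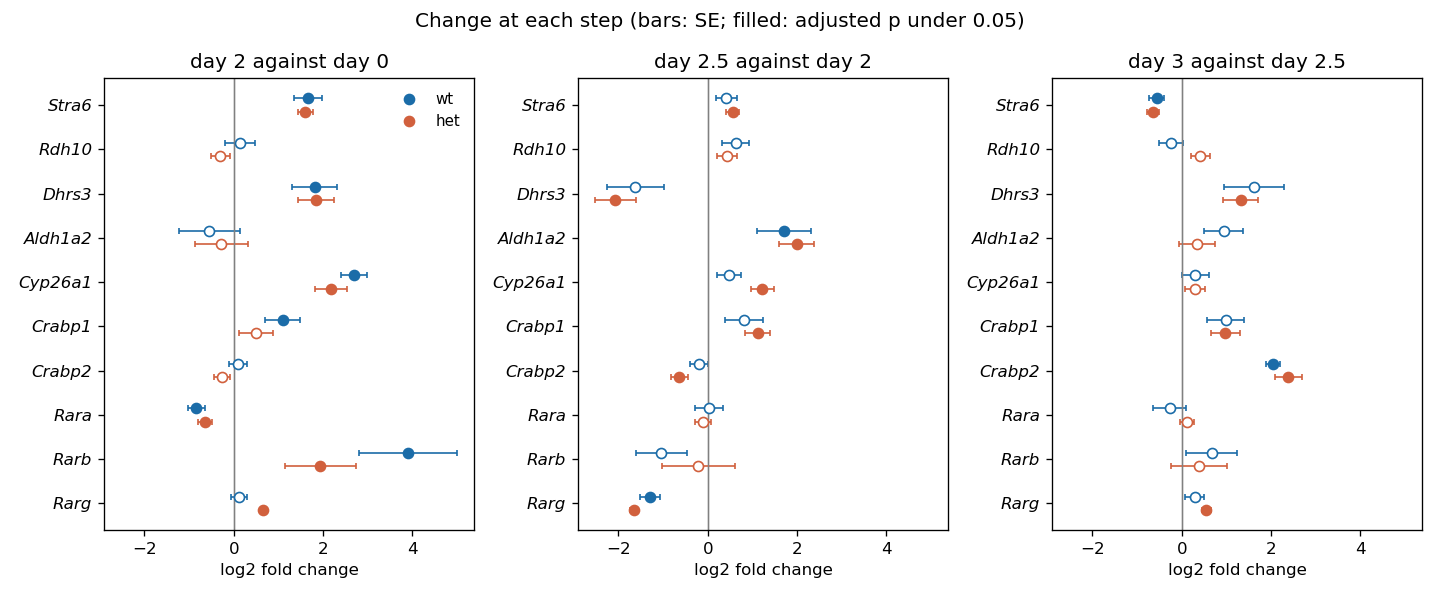
Log2 fold change of each gene at each step in wt and het, with bars for the SE and filled points where the adjusted p was under 0.05 (edgeR). Cyp26a1, Dhrs3, Stra6 and Rarb lay to the right in the first step, Rarg to the left in the second, and Crabp2 far to the right in the third.

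Stra6 (ENSMUSG00000032327, GRCm38 chromosome 9, 58063788 to 58153996, plus strand) was the retinol carrier of the set. At day 0 it was measured at 6.25, 6.66 and 13.3 CPM in wt lines 1, 2 and 3, and at 6.81, 7.50 and 6.82 CPM in het lines 1, 2 and 3. By day 2 the wt lines had 16.8, 29.8 and 35.8 CPM and the het lines 18.7, 21.7 and 23.3 CPM. All day 2 libraries were above all day 0 libraries. The log2 change was 1.67 in wt (SE 0.31, adjusted p 0.000596 by edgeR) and 1.60 in het (SE 0.17, adjusted p 9.63e-07 by edgeR). The extraembryonic endoderm markers moved in the same step, with 14 of 14 above 0 and 11 called higher in each genotype, and a median log2 change of 1.53 in wt and 1.23 in het. Of all genes, 22.4% were called higher in wt and 28% in het. The part of the markers in the rises of Stra6 and Cyp26a1 was not tested. Stra6 reached its highest group means at day 2.5, where wt had 36.5 ± 4.77 CPM and het had 31.7 ± 4.14 CPM (SD, n = 3). The step from day 2 passed in het (log2 change 0.56, SE 0.14, adjusted p 0.00521 by edgeR) and did not in wt (0.41, SE 0.23, adjusted p 0.211). At day 3 the wt lines had 27.4, 26.4 and 20.2 CPM and the het lines 23.2, 18.3 and 20.4 CPM. Each of the 6 lines was lower than at day 2.5. The fall was -0.56 in wt (SE 0.17, adjusted p 0.0387 by edgeR) and -0.65 in het (SE 0.13, adjusted p 0.00422 by edgeR). In wt this call was lost in 5 of the 6 fits that left out a library, all but the one without day 2.5 line 1, with values down to -0.43 and an adjusted p of up to 0.149.

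Rdh10 (ENSMUSG00000025921, chromosome 1, 16105774 to 16133734, plus strand), which catalyses the first oxidation of retinol, passed no test of any step or day. At day 0 wt had 8.33 ± 3.65 CPM and het 10.3 ± 1.37 CPM (SD, n = 3). On day 3 the means were 11.8 ± 0.505 and 15.4 ± 3.70 CPM (SD, n = 3). The lowest of its 24 libraries was wt day 0 line 1 with 4.32 CPM, and the highest was het day 3 line 1 with 19.4 CPM. Its group means spanned 0.97 on the log2 scale, the smallest range among the 10 genes.

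Dhrs3 (ENSMUSG00000066026, chromosome 4, 144892827 to 144928209, plus strand), which turns retinaldehyde back into retinol, went up, down and up again. Its counts at day 0 were 17, 27 and 9 in wt lines 1, 2 and 3 and 22, 20 and 16 in het lines 1, 2 and 3. At day 2 they were 74, 74 and 82 in wt and 63, 84 and 60 in het. At day 2.5 they dropped to 39, 0 and 22 in wt and 10, 25 and 25 in het. The count of 0 came from the smallest library, wt line 2, and allows a level of up to 0.414 CPM. At day 3 the counts were 133, 50 and 41 in wt and 43, 60 and 55 in het. In CPM, every line moved up, then down, then up. In the first step the groups did not overlap in either genotype, and the log2 change was 1.81 in wt (SE 0.50, adjusted p 0.00900 by edgeR) and 1.85 in het (SE 0.40, adjusted p 0.00101 by edgeR). The fall at day 2.5 passed in het (-2.07, SE 0.46, adjusted p 0.00201 by edgeR) and not in wt (-1.63, SE 0.64, adjusted p 0.0706). With the line as a replicate block, which pairs the days of a line, the wt fall passed as well (-1.91, adjusted p 0.0347 by edgeR). The last rise passed in het (1.32, SE 0.40, adjusted p 0.0270 by edgeR). In wt it was 1.62 (SE 0.68, adjusted p 0.119), or 1.79 with the block (adjusted p 0.0200). The het call of this rise was lost in 3 of 6 fits without a library, namely without day 2.5 line 1, day 3 line 2 or day 3 line 3, with an adjusted p of up to 0.0872.

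Aldh1a2 (ENSMUSG00000013584, chromosome 9, 71215789 to 71296243, plus strand), the retinoic acid synthase, had its lowest group means at day 2 in both genotypes. It was measured at 2.47, 1.22 and 0.447 CPM in wt lines 1, 2 and 3 at day 2, and at 1.20, 1.01 and 1.24 CPM in the het lines. At day 2.5 the wt lines had 7.81, 3.31 and 2.30 CPM and the het lines 5.26, 3.55 and 5.15 CPM. All het libraries of day 2.5 were above those of day 2, whereas wt line 3 at day 2.5 was below wt line 1 at day 2. The rise was 1.99 in het (SE 0.38, adjusted p 0.000814 by edgeR) and 1.70 in wt (SE 0.60, adjusted p 0.0493 by edgeR). The wt call was lost in 4 of 6 fits that left out a library (day 2 line 2 or 3, day 2.5 line 1 or 2). Without day 2.5 line 1 the change was 1.01 with an adjusted p of 0.305. Day 3 levels were 11.9, 8.84 and 5.30 CPM for wt and 10.6, 2.87 and 4.53 CPM in het. All 3 wt lines were higher than at day 2.5, and 1 of the 3 het lines was. The wt change of 0.94 (SE 0.44, adjusted p 0.156) became 1.03 with the line as a block (adjusted p 0.00663 by edgeR). Aldh1a2 did not pass between day 0, where the means were 2.04 ± 0.738 and 1.41 ± 0.822 CPM, and day 2 in either genotype (SD, n = 3). Day 2.5 was not tested against day 0. Wt line 3 had 2.89 CPM at day 0 and 2.30 CPM at day 2.5, while wt lines 1 and 2 were higher at day 2.5.

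Cyp26a1 (ENSMUSG00000024987, chromosome 19, 37697798 to 37701536, plus strand), whose product degrades retinoic acid, had the largest rise of the 10 genes from day 0 to day 2 in het and, after Rarb, the largest in wt. At day 0 it had 1.88, 3.48 and 4.55 CPM in wt lines 1, 2 and 3 and 1.06, 2.54 and 1.36 CPM in het lines 1, 2 and 3. On day 2 wt had 18.8, 19.2 and 25.0 CPM, and het 7.68, 5.84 and 8.81 CPM. Every line rose. The change was 2.68 in wt (SE 0.29, adjusted p 6.85e-06 by edgeR) and 2.18 in het (SE 0.36, adjusted p 9.99e-05 by edgeR). Over this step the mean summed level of the 16 endoderm markers went from 2907 to 11314 CPM in wt and from 1726 to 5680.5 CPM in het. At day 2.5 the wt lines had 16.1, 32.2 and 40.2 CPM and the het lines 13.4, 25.1 and 14.1 CPM. This second step passed in het (1.22, SE 0.25, adjusted p 0.00141 by edgeR) and not in wt (0.48, SE 0.27, adjusted p 0.209). Of the 14 endoderm markers tested, 9 were called higher in het in this step, where 21.8% of all genes were. In wt 0 were called higher and 1 lower, where 14.6% of all genes were higher and 14.5% lower. The interaction of genotype with this step passed 0 of the 14 markers and 0% of all genes in edgeR. By day 3 wt had reached 27.1, 36.8 and 44.7 CPM and het 18.1, 21.7 and 25.7 CPM, and the last step passed in neither genotype.

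Crabp1 (ENSMUSG00000032291, chromosome 9, 54764748 to 54773110, plus strand) and Crabp2 (ENSMUSG00000004885, chromosome 3, 87948666 to 87953376, plus strand) encode the binding proteins, CRABP2 being known for handing retinoic acid to its receptors. Crabp1 means were higher at the end of the course than at its start, which was not tested as such, going from day 0 means of 2.55 ± 0.878 (wt) and 2.58 ± 0.550 CPM (het) to 18.8 ± 5.64 and 15.9 ± 9.17 CPM at day 3 (SD, n = 3). Its first step passed in wt (1.09, SE 0.39, adjusted p 0.0364 by edgeR) and not in het (0.50, SE 0.38, adjusted p 0.282). The wt call was lost in 4 of 6 fits without a library (day 0 line 1 or 3, day 2 line 1 or 2), with an adjusted p of up to 0.140. From day 2 to day 2.5, when wt line 3 went down, the change passed in het (1.12, SE 0.28, adjusted p 0.00548 by edgeR) and not in wt (0.81, SE 0.42, adjusted p 0.165). At day 3 the wt lines had 24.9, 17.9 and 13.7 CPM and the het lines 26.5, 11 and 10.1 CPM. Line 1 was thus highest in each genotype, but wt line 1 and het line 1 are different lines. The last step passed in het (0.97, SE 0.32, adjusted p 0.0407 by edgeR), but the call was lost without day 2.5 line 1, day 2.5 line 2 or day 3 line 1, and without the last of these the change was 0.39 (adjusted p 0.188). In wt it was 0.98 (SE 0.42, adjusted p 0.122), or 1.14 with the line as a block (adjusted p 0.00100 by edgeR).

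Crabp2 stayed level until day 2.5 in wt and then rose sharply. At day 2.5 it was measured at 18.6, 20.3 and 13.6 CPM in wt lines 1, 2 and 3 and at 12.8, 11.1 and 15.3 CPM in het lines 1, 2 and 3. At day 3 the wt lines had 77.3, 66.1 and 70.6 CPM and the het lines 113, 40.7 and 55.3 CPM. No library of day 3 overlapped day 2.5. Of 4 paraxial mesoderm markers, 3 were tested in this step and all 3 were called higher in each genotype, with a median log2 change of 4.03 in wt and 2.71 in het, and their part in the Crabp2 rise was not tested. The change was 2.05 in wt (SE 0.16, adjusted p 0.000185 by edgeR) and 2.39 in het (SE 0.31, adjusted p 0.000300 by edgeR), and both calls were kept in all 6 fits that each left out a library. In het, Crabp2 had fallen from day 2 to day 2.5 (-0.64, SE 0.19, adjusted p 0.0140 by edgeR), a call that was lost in 3 of 6 such fits (day 2 line 1, day 2.5 line 1 or 2).

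Of the receptors, Rarg (ENSMUSG00000001288, chromosome 15, 102234938 to 102257517, minus strand) was the most abundant per length on each day. At day 2 it had 189, 101 and 144 CPM in wt lines 1, 2 and 3 and 169, 189 and 169 CPM in het lines 1, 2 and 3. On day 2.5 wt had 77.8, 56.2 and 44.1 CPM, and het 52.1, 57.3 and 59.7 CPM. All libraries of day 2.5 were below all of day 2. In the same step all 4 formative epiblast markers and all 3 neural markers tested were called lower in both genotypes, and their part in the fall of Rarg was not tested. The fall was -1.29 in wt (SE 0.23, adjusted p 0.00116 by edgeR) and -1.66 in het (SE 0.09, adjusted p 8.55e-09 by edgeR). In het, Rarg had risen from 112 ± 9.41 CPM at day 0 (SD, n = 3) to day 2 (0.66, SE 0.08, adjusted p 3.26e-06 by edgeR), and it rose again from day 2.5 to 83.9 ± 8.99 CPM at day 3 (0.55, SE 0.10, adjusted p 0.00187 by edgeR). The same steps in wt were 0.11 (SE 0.18, adjusted p 0.655) and 0.29 (SE 0.21, adjusted p 0.365). The interaction was 0.56 for the first step (SE 0.22, adjusted p 0.756) and 0.28 for the last (SE 0.25, adjusted p 0.999).

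Rara (ENSMUSG00000037992, chromosome 11, 98927818 to 98974942, plus strand) was the receptor that fell early. It was measured at 30.7, 21.8 and 22.7 CPM in wt lines 1, 2 and 3 and at 22.4, 21.1 and 20.4 CPM in het lines 1, 2 and 3 at day 0. At day 2 the wt lines had 14.1, 15.2 and 12.5 CPM and the het lines 14.9, 14.4 and 11.4 CPM. The days did not overlap. The change was -0.84 in wt (SE 0.19, adjusted p 0.00264 by edgeR) and -0.64 in het (SE 0.15, adjusted p 0.00237 by edgeR). Later steps did not pass. The spread in wt at day 2.5 was wide, with 23.3 CPM in line 1, 8.70 in line 2 and 10.4 in line 3.

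Rarb (ENSMUSG00000017491, chromosome 14, 16430839 to 16819156, minus strand) was near the limit of detection. Its counts at day 0 were 0, 0 and 6 in wt lines 1, 2 and 3 and 6, 10 and 3 in het lines 1, 2 and 3. At day 2 they were 49, 45 and 30 in wt and 50, 16 and 8 in het. The wt days did not overlap, whereas het line 3 at day 2 was below het line 2 at day 0 in CPM. The fitted change was 3.90 in wt (SE 1.10, adjusted p 0.0100 by edgeR), with 2 of the 3 day 0 libraries at 0 counts, so its size depends on the fit, and without day 0 line 3 it was 8.27. In het it was 1.94 (SE 0.79, adjusted p 0.0472 by edgeR). The het call was lost with the line as a block (1.74, adjusted p 0.106) and in 4 of 6 fits without a library (any of day 0, or day 2 line 1). Without day 2 line 1 the change was 0.92 with an adjusted p of 0.409. Rarb shares 1793 exon bases with Top2b and 227 with Gm48162, both on the opposite strand. The counting was not stated to use strand, so reads over these bases cannot be told apart.

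The comparison of het with wt on each day asked whether loss of the embryo's own paternal Smchd1 allele altered the pathway when the oocyte was normal. At day 0, 0 of the 9 genes tested passed, where 0% of all genes passed in edgeR, and Rarb was not tested for low counts. The only gene at an unadjusted p under 0.05 in edgeR was Rarg, where 1649 of 15108 genes were. By DESeq2 0 passed, where 82 of 15108 genes did. At day 2, 1 of 10 passed, where 0.551% of all genes did, and it was Cyp26a1. At day 2.5, 0 of 10 passed in edgeR or DESeq2, where 0% of all genes passed in edgeR and 3 of 15588 in DESeq2. Cyp26a1 alone of the 10 was under 0.05 before adjustment in edgeR, where 822 of 15588 genes were. On day 3, 0 of 10 passed in edgeR, where 0.00638% of all genes passed. Again Cyp26a1 alone of the 10 was under 0.05 unadjusted, where 1432 of 15686 genes were. On day 0 and day 2.5, 0 genes had 3 het libraries lying apart from the 3 wt libraries. Cyp26a1 alone, 1 of 10, did so on day 2 and on day 3, both times lower in het. Over all genes tested, such separation was seen for 16.7% (day 0), 16% (day 2), 11.4% (day 2.5) and 13.9% (day 3).

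For Cyp26a1, the counts at day 2 were 382, 361 and 503 in wt lines 1, 2 and 3 and 128, 98 and 135 in het lines 1, 2 and 3. The mean level in het was 35.4% of that in wt. The log2 change was -1.51 (SE 0.22, adjusted p 0.00971 by edgeR). On day 0 it was -1.0 (SE 0.47, adjusted p 0.457) and the het mean was 50.2% of wt. The day 2.5 change was -0.74 (SE 0.32, adjusted p 0.907), with het at 59.6% of wt. Without wt line 3 it was -0.42. For day 3 the change was also -0.74 (SE 0.19, adjusted p 0.302), with het at 60.3%. Without wt line 1 it passed (-0.91, adjusted p 0.0431 by edgeR). The DESeq2 Wald test passed Cyp26a1 on day 3 (adjusted p 0.0283), as did the edgeR fit with no filter (0.00371), which also passed it on day 2.5 (0.0166). All 4 days come from these 6 lines, so they are repeated measures. When the counts of the 4 days of each line were summed, the change was -0.81 (SE 0.19, adjusted p 0.340 by edgeR, unadjusted p 0.00140), and 0 of the 10 genes passed, where 0.00544% of all genes did. Without wt line 1 the summed change of Cyp26a1 passed (-0.98, adjusted p 0.0101 by edgeR), as did 404 of 18797 genes. The day 2 call was kept in the 5 other settings tried. It was lost in 4 of 6 fits without a library (wt line 3 or any het line), with values from -1.65 to -1.36 and an adjusted p of up to 0.0871. The interaction of genotype with the steps, 0.75 from day 2 to day 2.5 (SE 0.41, adjusted p 0.952), did not show that the difference changed with time.

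**Figure D4:**
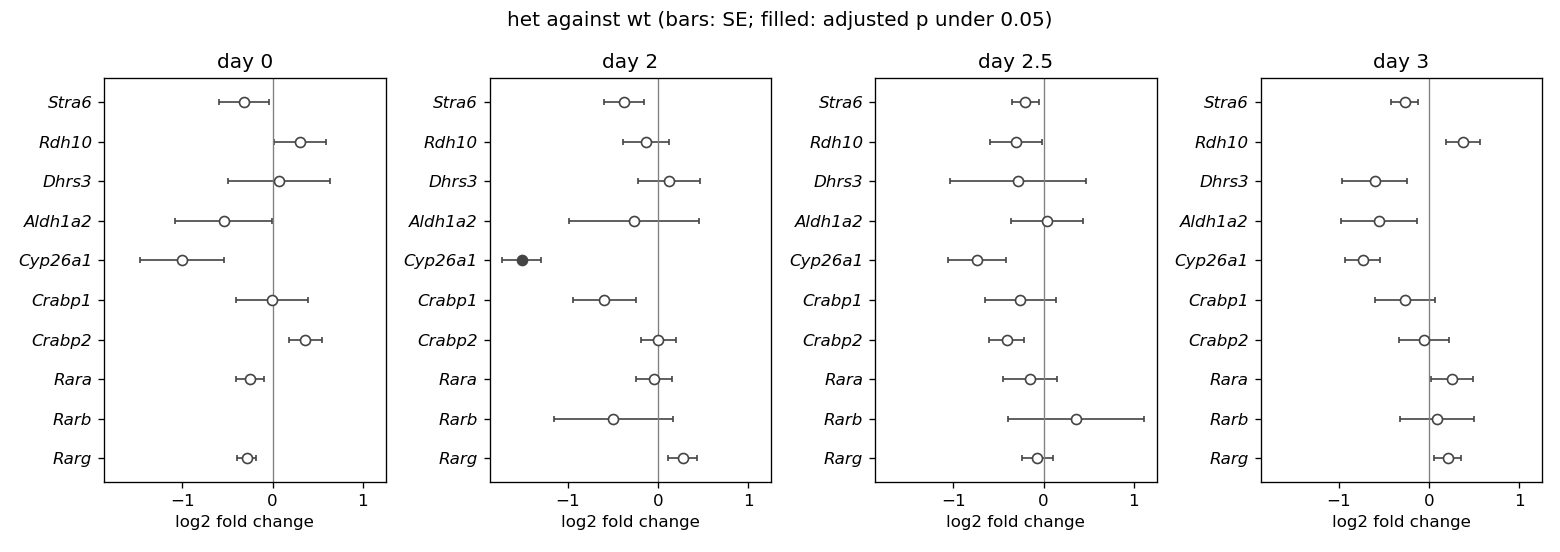
Log2 fold change of het against wt for each gene on each day, with bars for the SE and filled points where the adjusted p was under 0.05 (edgeR). Cyp26a1 lay left of 0 on all 4 days and passed at day 2, and Rarb has no point at day 0 because it was not tested.

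Markers of extraembryonic endoderm, a cell type that arises beside mESCs in culture, were lower in het at day 2, where Cyp26a1 was too. Of the 16 markers, 14 were tested on each day, and all 14 were below 0 in het against wt on each of the 4 days. At day 2, 12 of the 14 passed, where 0.551% of all genes did, with a median log2 change of -1.04 and a range from -1.52 to -0.88. Without wt line 3, 8 of all genes passed at day 2. Without het line 1, 2 or 3 the numbers were 1, 3 and 0. The 12 marker calls could therefore not all stand in those fits. Median changes were -0.85 (day 0), -0.47 (day 2.5) and -0.70 (day 3), and there 0 of 14 passed in edgeR. The other 2, Afp and Apoa1, were under 1 CPM in all libraries. The summed level of the 16 at day 2 was 7582 to 15498 CPM for wt and 4599.8 to 6389.5 CPM for het, without overlap. On day 0 it was 2341 to 3930.5 CPM for wt and 1359 to 1970.1 CPM for het. At day 2.5 the ranges overlapped, 5325 to 13869 CPM for wt and 5653 to 8218 CPM for het, and those of day 3 did too, 5327 to 10583 and 4076 to 6704 CPM. The 5327 CPM of wt line 1 at day 3 lay below het lines 2 and 3 (6476 and 6704 CPM). Cyp26a1 in that wt library was 27.1 CPM, above the 18.1 to 25.7 CPM of the het lines. Sox7 and Gata4, transcription factors of this lineage, had log2 changes of -1.52 (adjusted p 0.00971 by edgeR) and -1.06 (adjusted p 0.0170 by edgeR) at day 2.

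Across the 24 libraries, Pearson's r between log2 CPM of Cyp26a1 and the mean log2 CPM of the 16 markers was 0.924. It was 0.793 for the deviations from the group means, and 0.850 over the 6 libraries of day 2. Stra6 gave 0.854, 0.544 and 0.799. These libraries share lines and days, and the values are descriptions. For the deviations, Crabp1, Rarg and Rara gave -0.683, -0.681 and -0.669, and the other genes lay between -0.495 and 0.344. The part of the endoderm markers in the Cyp26a1 difference was not tested.

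**Figure D5:**
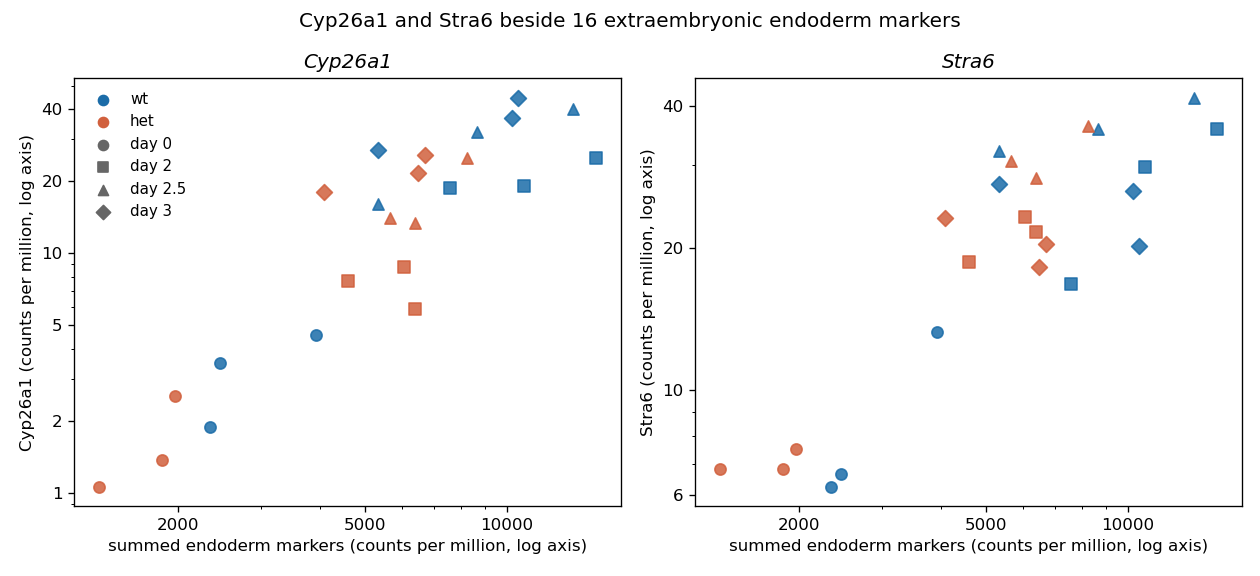
Level of Cyp26a1 and of Stra6 against the summed level of 16 extraembryonic endoderm markers (CPM, log axes), with 1 point per library, coloured by genotype and shaped by day. Over all libraries both genes tended to be higher where the markers were higher, and the day 0 libraries were lowest in all of them. Later libraries did not all follow. Cyp26a1 was 27.1 CPM in wt day 3 line 1 (markers 5327 CPM) and 19.2 CPM in wt day 2 line 2 (10862 CPM). Stra6 was 32.2 CPM in wt day 2.5 line 1 (5325 CPM) and 16.8 CPM in wt day 2 line 1 (7582 CPM). The 3 het libraries of day 2 had lower Cyp26a1 and lower markers than the 3 wt libraries of day 2.

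None of the other 9 genes passed between genotypes on any day in edgeR. For Crabp1 the change was -0.59 at day 2 (SE 0.35, adjusted p 0.611), with 5.97, 6.18 and 4.18 CPM in wt lines 1, 2 and 3 and 2.82, 3.22 and 4.83 CPM in het lines 1, 2 and 3. Stra6 had -0.38 on day 2 (SE 0.22, adjusted p 0.611) and -0.24 in the summed counts (SE 0.11, adjusted p 0.565), and Crabp2 was 0.00 at day 2 (SE 0.19, adjusted p 0.999). Dhrs3 and Aldh1a2 were -0.60 (SE 0.36, adjusted p 0.654) and -0.56 (SE 0.42, adjusted p 0.741) at day 3. With 3 lines per genotype, changes of this size could not be told from the spread between lines.

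The pathway's other genes were taken as 53 genes in 7 lists, of carriers, enzymes, receptor partners, co-regulators and known responsive genes. Between genotypes 0 of 36 to 40 tested passed on any day. Few of all genes passed either, with 0.551% (day 2), 0.00638% (day 3) and 0% otherwise. A count of 0 in lists this small therefore does not show that these genes were unaffected. By step, 9 rose and 8 fell of 38 tested in wt from day 0 to day 2 (44.3% of all genes passed), and 10 rose and 10 fell of 37 in het (56.1% of all genes). From day 2 to day 2.5, 9 rose and 5 fell of 38 in wt (29.1% of all genes), and 10 rose and 11 fell of 41 in het (44.7%). The last step had 5 higher and 4 lower of 41 in wt (19.1% of all genes), and 6 higher and 7 lower of 40 in het (29.8%). The 3 largest changes from day 2 to day 2.5 were in Cdx1, Hoxb1 and Stra6l in both genotypes, and Aldh1a3 came next in het. Cdx1 is also 1 of the 7 NMP markers. Of the 9 known responsive genes tested in this step, 3 rose and 1 fell in wt, and 3 rose and 2 fell in het. Their median log2 change was 0.21 in wt and 0.32 in het.

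Cdx1, a homeobox gene that Wnt and retinoic acid both activate, went from between 0.639 and 0.895 CPM at day 2 to between 160 and 311 CPM at day 2.5 in wt (log2 change 8.26, SE 0.29, adjusted p 9.07e-10 by edgeR) and changed by 7.74 in het (SE 0.25, adjusted p 9.67e-11 by edgeR). Hoxb1 rose by 4.56 in wt (SE 0.27, adjusted p 1.95e-07 by edgeR) and by 5.54 in het (SE 0.31, adjusted p 1.45e-08 by edgeR). Stra6l, which encodes a relative of STRA6, rose by 4.57 in wt (SE 0.76, adjusted p 0.000825 by edgeR) and by 5.19 in het (SE 0.62, adjusted p 1.50e-05 by edgeR). Aldh1a3, a second retinoic acid synthase, rose by 2.91 in het (SE 0.53, adjusted p 0.000490 by edgeR) and by 1.59 in wt (SE 0.44, adjusted p 0.0159 by edgeR). The CYP26 relatives Cyp26b1 and Cyp26c1 stayed at or below 1.44 and 0.301 CPM in all libraries, while Cyp26a1 reached 44.7 CPM. Aldh1a1, the third synthase, had at most 0.421 CPM.

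The 10 genes did not move as a block over the 24 libraries. Of their 45 pairs, 28 had a positive Pearson's r of log2 CPM, with a median of 0.267, and 2 were above 0.8, namely Cyp26a1 with Stra6 (0.871) and Aldh1a2 with Crabp1 (0.814). The lowest value was -0.760, for Cyp26a1 with Rara. Pairs with Dhrs3 or Rarb rest in part on the value that a prior count gives to libraries at 0 counts, 1 for Dhrs3 and 2 for Rarb. On the log2 scale with that prior, the widest ranges of group means were those of Rarb, Cyp26a1, Dhrs3 and Crabp1. The place of Dhrs3 in that order depends on its library at 0 counts. For Cyp26a1 and Crabp1, which had no library at 0, the 3 genes most like each were sought among 12456 and 12457 genes whose mean count was 50 or more. For Cyp26a1 these were Atp6v0a1 (r = 0.968), Lamp1 (0.966) and Rgl1 (0.964). Crabp1 was most like Arid3b (0.914), Mllt3 (0.910) and Hmgb3 (0.904). These values are over 24 libraries that share lines and days, and are given as descriptions.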

How the data were processed

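Gene expression was measured by poly(A) RNA sequencing in the 24 libraries. The authors trimmed 75-base single-end reads with Trim Galore 0.4.4, aligned them with HISAT2 2.0.5 to GRCm38.p6 and counted them in SeqMonk, and the deposited table gives unnormalised counts of reads for each gene. Kits were stranded or not, which was not given per library. All 24 columns were matched to labels by title. The authors' group means and log2 RPKM tables were not used. Totals ranged from 7.10 M to 20.8 M counts, so 3 counts were at most 0.414 CPM.

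The tests used edgeR 4.0.16 under R 4.3.3: TMM factors, filterByExpr by group, and the quasi-likelihood test between the groups compared, with Benjamini-Hochberg adjustment over all genes tested and a threshold of 0.05. Tested were the genotypes within a day, each step within a genotype, and their interaction. Log2 CPM used a prior count of 0.5. Genes were matched to GENCODE vM21 (GRCm38), in which all 10 had the same position. The SE is the log2 change over the root of the F statistic. Alternatives were DESeq2 1.42.0 (size factors, Wald test), library totals, no filter, 1 fit of all libraries, the line as a block, and each library left out. The counts summed per line and the endoderm levels were chosen after seeing the data. The procedure was tested on simulated data. Python 3.11.15 and matplotlib 3.10.9 drew the figures.

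The 10 genes, gene lists and markers were chosen with earlier results of these data known. The 10 are all described. Other genes were named only from those lists, where among the 4 largest changes past the threshold from day 2 to day 2.5 or where a result turned on them, and as the 3 most correlated genes of the 4 members with the widest range of group mean log2 CPM, of which Dhrs3 and Rarb are left out because libraries at 0 counts bear on their correlations. One gene that this rule names is not reported here. The days of a line pair by the labels, since they are the same line. Deviations from group means correlated between successive days of a line with r from -0.101 to 0.472 (median 0.0758, 18 pairs), and 14 of 18 were highest for the own line. No pair of replicates agreed within sampling noise (chi-square over its degrees of freedom of at least 5.63 in 24 pairs).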

Additional observations from a re-analysis of the deposited data

How the results depend on the processing

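No called member changed sign in any alternative. With the line as a replicate block, 5 values far from the threshold did, among them Rara in wt day 2.5 against day 2 (0.03 to -0.09) and Rarb in the last interaction (-0.26 to 0.21). Of the values of the called members and of Cyp26a1 between genotypes, 178 of 189 stayed on the same side of the threshold under other settings and 166 of 198 when a library was left out. Counts of members that moved by more than 1.5 times were as follows. With no filter beyond 1 count, 1 member passed in het against wt at day 2.5 and at day 3 (0 in each otherwise), 1 in the interaction of genotype with day 2 against day 0 (0 otherwise), 4 in wt day 2.5 against day 2 (2 otherwise, with 5015 of 22238 genes called against 4519 of 15540) and 5 in wt day 3 against day 2.5 (2 otherwise, with 3505 of 22350 genes against 2923 of 15292). The DESeq2 Wald test passed 1 at day 3. Smaller shifts of 1 member occurred in 8 other counts, among them 3 in wt day 2.5 against day 2 by the DESeq2 Wald test, in 1 fit of all libraries and with the block. With the line as a replicate block, 5 passed in wt day 3 against day 2.5 (2 otherwise), where all calls went from 2923 to 4687 of 15292 genes, and the calls of Dhrs3, Aldh1a2, Crabp1 and Rarb that it changed are given with those genes. One fit of all 24 libraries passed 2 in het day 3 against day 2.5 (5 otherwise). In that fit the calls of Stra6 (adjusted p 0.0688 in wt and 0.0520 in het), Dhrs3 (0.0806 in het) and Crabp1 (0.0655 in het) for the last step, of Crabp2 for the second (0.0586 in het) and of Rarb for the first (0.0650 in het) were lost in edgeR. Rarb in het also missed with no filter (0.0510). The cause of these moves was not tested.

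Leaving out each library in turn gave 0 to 1 members at day 2, 0 to 1 at day 3 and 0 to 1 for the summed counts in het against wt, where Cyp26a1 passed without wt day 3 line 1 (-0.91, adjusted p 0.0431 by edgeR) and, summed, without wt line 1 (-0.98, adjusted p 0.0101 by edgeR). Counts were 0 at day 0, at day 2.5 and in the interactions. They ranged from 5 to 6, 1 to 4 and 1 to 4 for the 3 steps in wt, and from 5 to 6, 6 to 7 and 3 to 6 in het. At day 2.5 the Cyp26a1 change was -0.42 without wt line 3. Over all genes, the 85 of het against wt at day 2 became 384 with no filter, 233 by DESeq2 and 23 in the fit of all libraries, and from 0 (without het line 3) to 211 (without wt line 1) when a library was left out. The 1 of the summed counts became 404 without wt line 1, the 0 of day 0 up to 68 without wt line 2, and the 1 of day 3 up to 93 without wt line 1. By DESeq2 82 genes passed at day 0, 3 at day 2.5, 116 at day 3 and 10 in the first interaction, and with no filter 369, 87, 274 and 58. Rarb and Dhrs3 had at most 133 counts in any library, which limits their precision, and wt day 2.5 line 2 had the fewest counts.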
